A study of Mus musculus with 9 samples.

Results

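The chemokines and chemokine receptors were examined in mouse T-cell lymphomas that maintain their telomeres in different ways. Members were taken by symbol: Ccl, Cxcl, Ccr, Cxcr, Xcl or Xcr followed by a number, with Cx3cl1 and Cx3cr1. That gave 50 genes of the 18194 genes named on the array, 33 ligands and 17 receptors, and each gene was read from its probe set with the highest mean signal. The tumours were labelled G3 Atm-/-TERT-ER: all of them lack Atm, a kinase of the DNA break response, and all carry telomerase fused to the oestrogen receptor. All were grown in SCID mice. There were 5 tumours kept on vehicle, labelled as using alternative lengthening of telomeres (ALT), and 3 tumours kept on 4-hydroxytamoxifen (4-OHT), labelled as telomerase-positive, all at passage 4, and 1 parental tumour, also labelled telomerase-positive. Drug, telomerase activity and ALT therefore cannot be told apart between the groups. SCID hosts keep their own macrophages, other myeloid cells and stroma, so the RNA of a tumour comes from lymphoma and host cells. Neither the age of the mice nor whether each tumour grew in its own mouse is stated in the labels, so a p-value here reflects only how these samples vary.

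Chemokines are small secreted proteins that guide leukocytes along gradients, and they act through receptors of the G protein-coupled family. Inflammatory chemokines are made on demand, largely by macrophages, stroma and activated lymphocytes, whereas homeostatic chemokines place lymphocytes in thymus, spleen and lymph node. Developing thymocytes respond to CXCL12 through CXCR4, to CCL25 through CCR9 and to CCL19 and CCL21 through CCR7.

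The arrays differed little in brightness, with median signals of 39.8 to 43.8. The label of T-cell lymphoma was checked against 16 measured T-cell genes: Cd3e, Cd3d, Thy1 and Lat averaged at least 1468 in either group, though Cd3e and Cd3d were lower in ALT tumours. The summed signal of the 16 genes was 35698 to 44051 in ALT tumours and 46509 to 50958 in telomerase tumours. Transcripts of pancreatic acinar cells were present in ALT 1, 2 and 5 and in telomerase 3 (summed signal of 14 genes 95600 to 198630) and low in the other 5 arrays (315 to 1036). Transcripts of skeletal muscle were high in telomerase 1 (9577) and the parental tumour (14547) and between 261 and 657 in the other arrays.

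Of the 50 genes, 6 passed an adjusted p of 0.05 in the comparison of ALT with telomerase tumours. The ligands Ccl8, Ccl12 and Cxcl13 and the receptors Ccr2 and Ccr7 fell, and the receptor Cxcr4 rose. Over all genes tested 10.6% passed, 4.52% higher and 6.06% lower in ALT tumours, against 12% of the chemokine and receptor genes, so the number of changed members was near that of genes in general. The median log2 change was 0.00246 over the 50 members and 0.0118 over all genes, and the lowest member was at −4.00. All tests used limma on log2 of the signal plus 16, with Benjamini-Hochberg adjustment over all 18194 genes. Every ALT value lay on one side of every telomerase value in 6 of the 50 members, 1 higher and 5 lower in ALT tumours. Over all genes 18.3% were separated in this way (8.27% higher and 10.1% lower), so the members were not separated more often. The 6 are the called genes, which were picked on the same values, so their separation adds no further evidence.

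By role, 3 of 33 ligands fell and 0 rose (9.09% called), and of 17 receptors 2 fell and 1 rose (17.6% called). An unadjusted limma p under 0.05 was reached by 6 of the 33 ligands and by 4260 of all 18194 genes, so not more often among the ligands. The summed signal of the ligands was 1660 to 2810 in ALT tumours and 6357 to 8041 in telomerase tumours, and these ranges did not overlap. The separation came from the 3 called ligands: the other 30 summed to 1466 to 1896 in ALT tumours and 1817 to 2740 in telomerase tumours, which overlapped. That of the receptors was 2586 to 3987 in ALT tumours and 2539 to 4919 in telomerase tumours, which overlapped. Of the 50 members, 11 had a mean signal over 100.

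**Figure D1:**
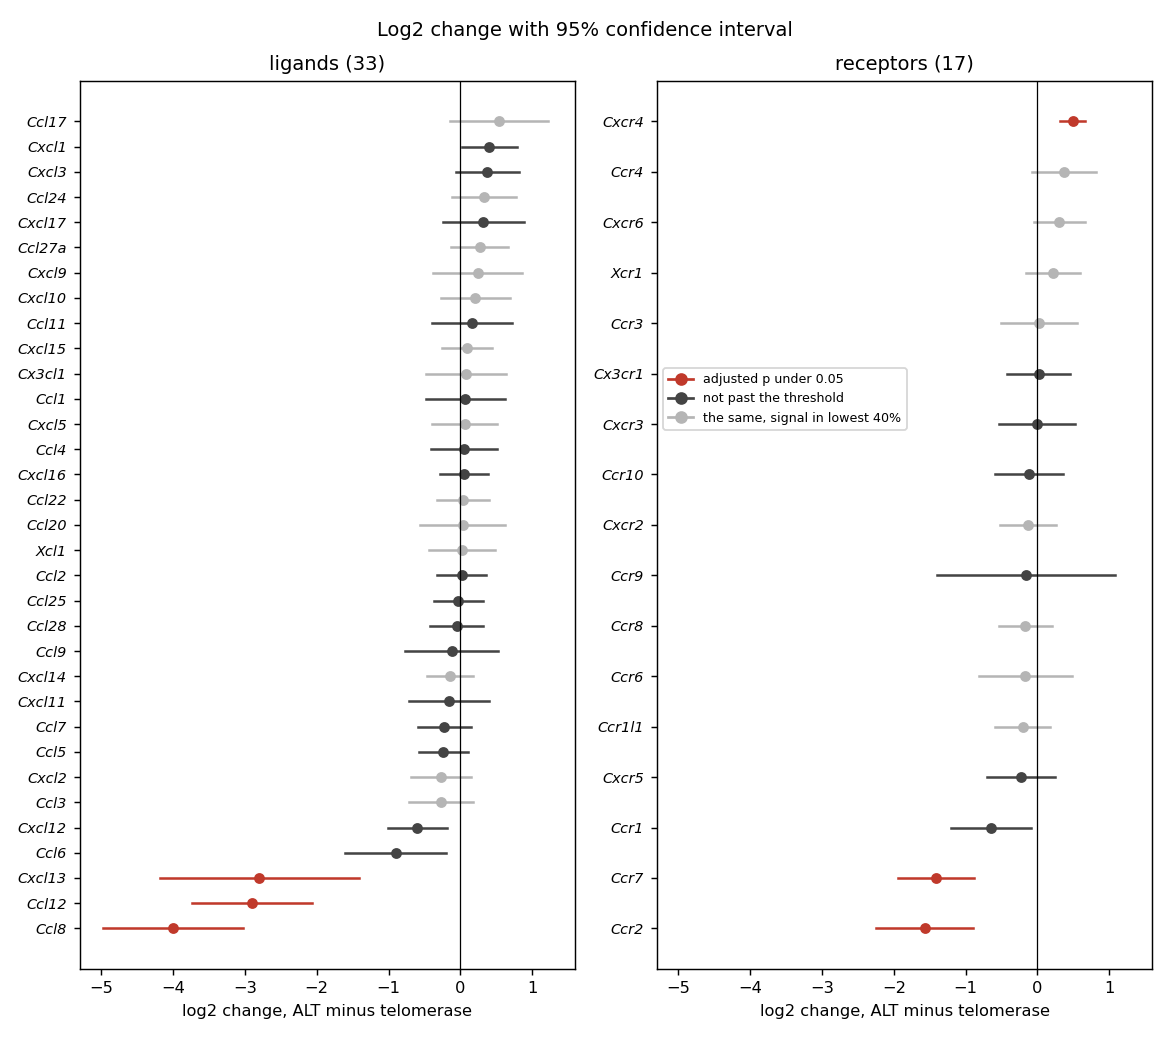
Log2 change between ALT and telomerase tumours (horizontal axis, ALT minus telomerase) of the 33 ligands (left) and 17 receptors (right), with 95% confidence intervals from limma. Red marks genes past an adjusted p of 0.05, dark grey other genes and light grey those among the dimmest 40% of probe sets by mean signal. The 3 red ligands lie at −4.00, −2.90 and −2.80, and most of the other genes lie within 0.5 of 0.

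Ccl8, the gene of a CC chemokine that attracts monocytes and lymphocytes, had the highest mean signal of the 33 ligands. Its signal was 73.3, 291.9, 137.3, 407.9 and 204.4 in ALT tumours 1 to 5, against 3418, 4866 and 2218 in telomerase tumours 1 to 3. The lowest telomerase value was 5.44 times the highest ALT value. The means were 223 ± 131 (SD, n = 5) in ALT and 3501 ± 1326 (SD, n = 3) in telomerase tumours, a log2 change of −4.00 (SE 0.440, limma adjusted p = 0.00038). The parental tumour stood at 2393, within the range of the telomerase tumours. In bulk RNA, fewer cells of a type and less RNA per cell cannot be told apart. The change was as large in the arrays without acinar transcripts alone (2 ALT and 2 telomerase tumours, log2 change −4.01, adjusted p = 0.00532). In the arrays with them (3 ALT tumours and 1 telomerase tumour, whose spread is assumed to equal that of the ALT tumours) it was −3.62 and missed the threshold (adjusted p = 0.0557).

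Ccl12, a CC chemokine of mouse that binds CCR2, lies next to Ccl8 among the protein-coding genes of chromosome 11. Ccl12 signals were 17.7, 53.6, 18.7, 37.9 and 52.8 in ALT tumours 1 to 5, against 424.9, 595 and 174.6 in telomerase tumours 1 to 3, so the groups did not overlap. ALT tumours averaged 36.1 ± 17.5 (SD, n = 5) and telomerase tumours 398 ± 211 (SD, n = 3), with a log2 change of −2.90 (SE 0.379, limma adjusted p = 0.00086). The parental tumour, at 313.5, was again within the telomerase range. Part of the size depends on the constant added before the logarithm, with −3.40 for a constant of 1 and −2.10 for a constant of 64. In the arrays with acinar transcripts alone the change was −1.81 (adjusted p = 0.156). Of the telomerase tumours, telomerase 2 was highest and telomerase 3 lowest in both Ccl8 and Ccl12, whereas ALT 4 was highest for Ccl8 and ALT 2 for Ccl12.

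Cxcl13, the chemokine that draws B cells and follicular helper T cells into lymphoid follicles, fell with a wider spread. Its signals were 53.7, 202.4, 37.5, 467.4 and 65.3 in ALT tumours 1 to 5, against 696.9, 726.4 and 1256 in telomerase tumours 1 to 3. ALT 4 stood well above ALT 1, 3 and 5, and the ALT values spanned a 12.5-fold range. The log2 change was −2.80 (SE 0.624, limma adjusted p = 0.0168). The second Cxcl13 probe set was lower in ALT tumours as well, with means of 81.7 in ALT and 465.9 in telomerase tumours (log2 change −2.62, adjusted p = 0.00633 over all probe sets). The parental tumour had 248.6, within the ALT range, and Cxcl13 was the one called member whose parental value lay nearer to the ALT mean. Leaving out any telomerase tumour ended the call (adjusted p = 0.057, 0.0514 and 0.0696 for telomerase 1, 2 and 3 in turn), with log2 changes of −2.95, −2.92 and −2.53. The change was −2.18 in the arrays without acinar transcripts (adjusted p = 0.244) and −3.57 in those with them (adjusted p = 0.0557).

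The promoters of the 3 ligands that fell are shown because Ccl8 and Ccl12 are neighbours that fell together and Cxcl13 lies on another chromosome. The sequences are those of RefSeq on GRCm38.p6, from 250 bases before to 50 bases after the annotated start, on the plus strand: chr11:82114935-82115234 for Ccl8, chr11:82101595-82101894 for Ccl12 and chr5:95956689-95956988 for Cxcl13. Capitals mark the letters TATAAA of a TATA box.
Ccl8: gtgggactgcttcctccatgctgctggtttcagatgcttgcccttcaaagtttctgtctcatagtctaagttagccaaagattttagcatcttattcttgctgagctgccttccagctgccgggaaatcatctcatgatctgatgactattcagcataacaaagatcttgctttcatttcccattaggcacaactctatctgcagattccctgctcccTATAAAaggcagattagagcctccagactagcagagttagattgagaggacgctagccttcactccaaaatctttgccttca
Ccl12: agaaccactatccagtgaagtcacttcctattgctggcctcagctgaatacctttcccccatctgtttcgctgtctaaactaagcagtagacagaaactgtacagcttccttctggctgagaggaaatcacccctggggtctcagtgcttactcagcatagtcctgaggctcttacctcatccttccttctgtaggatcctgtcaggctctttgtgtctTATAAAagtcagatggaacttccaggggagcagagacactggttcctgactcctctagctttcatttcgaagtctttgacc
Cxcl13: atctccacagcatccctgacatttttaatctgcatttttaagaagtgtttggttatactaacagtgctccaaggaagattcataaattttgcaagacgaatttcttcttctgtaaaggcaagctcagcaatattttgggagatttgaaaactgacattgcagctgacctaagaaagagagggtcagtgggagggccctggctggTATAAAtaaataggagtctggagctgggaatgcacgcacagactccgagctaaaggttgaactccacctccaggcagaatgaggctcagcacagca

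The TATAAA letters begin 32 bases before the start in Ccl8, 31 bases before it in Ccl12 and 46 bases before it in Cxcl13. On either strand, 13.6% of the 32851 promoters of this length hold them. The interferon-stimulated response element (held by 3.44% of these promoters), the STAT element TTCNNNGAA (8.3%), the AP-1 site TGANTCA (7.81%), the NF-kappaB consensus (4.51%) and the oestrogen response element (0.07%) were searched on both strands, and their letters are not in these 3 windows. Of the 50 members 37 matched the promoter table, with 41 promoters, of which 12 held the TATAAA letters. Among the other called members, Cxcr4, which rose, held them 30 bases before its start. Ccr2, which fell, did not hold them, and Ccr7 had no matched promoter.

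**Figure D2:**
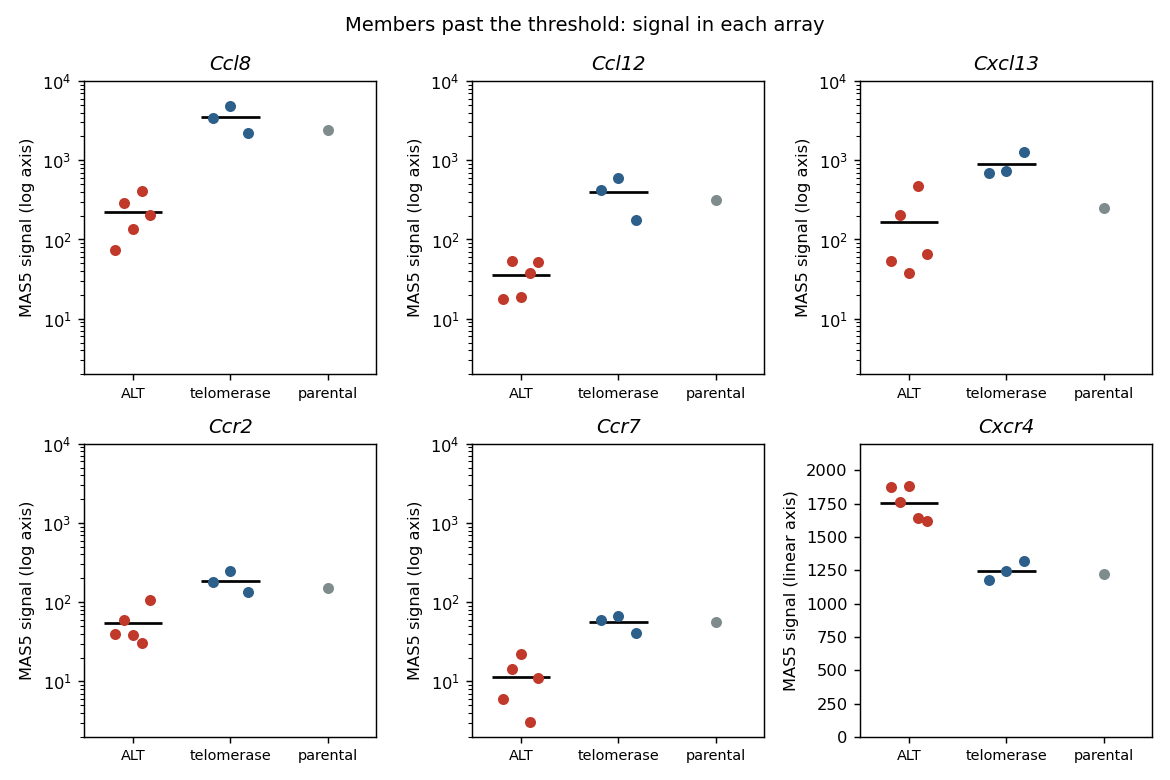
MAS5 signal of the 6 called genes in each array, with ALT tumours (red) left of telomerase tumours (blue) and the parental tumour (grey); lines are group means, and the axis is logarithmic except for Cxcr4. For Ccl8 the 5 ALT tumours sit between 73.3 and 407.9 and the 3 telomerase tumours between 2218 and 4866.

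Ccl8 and Ccl12 belong to a run of 6 neighbouring CC chemokine genes on chromosome 11, in the order Ccl2, Ccl7, Ccl11, Ccl12, Ccl8 and Ccl1. The other 4 genes of the run did not pass the test. Ccl2, a monocyte attractant, had 79.9, 87.9, 97.9, 66.4 and 91.3 in ALT tumours 1 to 5, against 95.3, 80.2 and 74.4 in telomerase tumours 1 to 3, and the groups overlapped throughout (log2 change 0.02, 95% interval −0.32 to 0.35, limma adjusted p = 0.966). Ccl7, another monocyte attractant, had 20.9, 33.6, 20.6, 33.2 and 32.5 in ALT tumours, against 32.5, 36.4 and 36.1 in telomerase tumours, with ALT 1 and 3 lowest (log2 change −0.22, 95% interval −0.59 to 0.15). Ccl11, an attractant of eosinophils, had a log2 change of 0.16 and Ccl1, a ligand of CCR8, of 0.07. The signals of Ccl7, Ccl11 and Ccl1 stayed at or under 60.7 in all 8 tumours.

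A second run on chromosome 11 holds Ccl5, Ccl9, Ccl6, Ccl3 and Ccl4, and none of them passed the test. Ccl6, a chemokine of myeloid cells in rodents, was the brightest of these. Ccl6 signals were 437.9, 313.3, 265.9, 669.9 and 446.1 in ALT tumours 1 to 5, against 559.6, 617.8 and 1328 in telomerase tumours 1 to 3. ALT 4 lay above telomerase 1 and 2, and telomerase 3, which carried acinar transcripts, was highest. The log2 change was −0.90 (SE 0.319, unadjusted p = 0.017, limma adjusted p = 0.107), and a second probe set gave −0.71. It passed without ALT 4 (log2 change −1.08, adjusted p = 0.047) and was −0.52 without telomerase 3 (adjusted p = 0.347). The arrays with acinar transcripts gave −1.71 (adjusted p = 0.0322), but there the only telomerase tumour is telomerase 3, the highest of all, and those without them gave −0.46 (adjusted p = 0.584).

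Ccl9, the neighbour and close relative of Ccl6, had 243.4, 177.4, 191.6, 247 and 264.7 in ALT tumours 1 to 5, against 208.4, 146.3 and 464 in telomerase tumours 1 to 3, with the highest and the lowest value both in telomerase tumours (log2 change −0.12, adjusted p = 0.855). Its change was 0.32 without telomerase 3, so its direction rests on that array. The T-cell and macrophage products Ccl3, Ccl4 and Ccl5 stayed at or under 46.6 in all 8 tumours, with log2 changes of −0.27, 0.05 and −0.24.

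**Figure D3:**
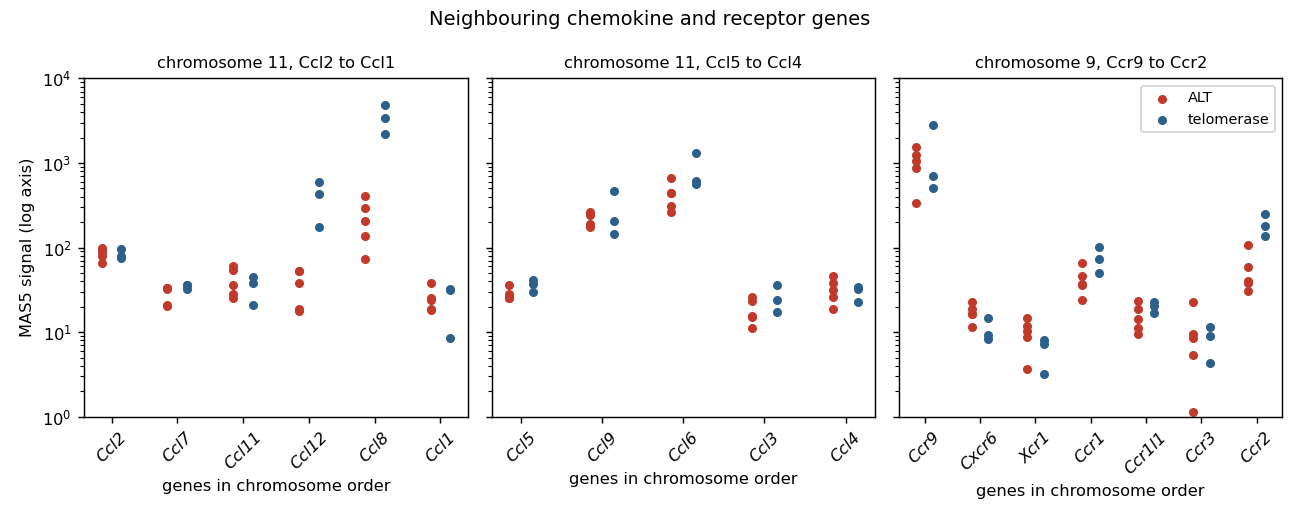
MAS5 signal (log axis) of neighbouring chemokine and receptor genes in chromosome order, with each ALT tumour in red on the left and each telomerase tumour in blue on the right of a gene. In the first run on chromosome 11 the groups are apart at Ccl12 and Ccl8 and overlap at Ccl2, Ccl7, Ccl11 and Ccl1; on chromosome 9 they are apart at Ccr2.

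Cxcl12, the stromal ligand of CXCR4, had 94.97, 111.1, 104.4, 132.7 and 111.9 in ALT tumours 1 to 5, against 217.9, 201.5 and 121.9 in telomerase tumours 1 to 3. Only ALT 4 lay above a telomerase tumour, telomerase 3. The log2 change of −0.60 (SE 0.183, unadjusted p = 0.00801) missed the threshold (limma adjusted p = 0.066). It passed without telomerase 3 (log2 change −0.84, adjusted p = 0.0117), with the parental tumour counted as a telomerase tumour (−0.57, 0.0345), with genes of low signal left out (−0.60, 0.0446) and with robust moderation of the variance (−0.60, 0.0449). Other settings kept the sign and missed the threshold. Some came nearer to it, as without ALT 4 (−0.66, limma adjusted p = 0.0607), and most lay further from it. The change was −0.23 as the mean of all its probe sets (limma adjusted p = 0.541) and −0.68 with the replicate number as a block (0.147). In the arrays with acinar transcripts, with 1 telomerase tumour, it was −0.18. The other 2 Cxcl12 probe sets had changes of −0.11 and 0.03.

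Among the remaining ligands, Cxcl16, the membrane-bound ligand of CXCR6, had 113.0 to 163.2 in ALT and 104.0 to 133.7 in telomerase tumours (log2 change 0.05, 95% interval −0.28 to 0.38). Ccl25, the thymic ligand of CCR9, had 58.4 to 84.5 in ALT and 60.8 to 80.6 in telomerase tumours (log2 change −0.03, 95% interval −0.37 to 0.31). Cxcl1, an attractant of neutrophils, had 72.3 to 127.9 in ALT and 67.8 to 81.9 in telomerase tumours (log2 change 0.40, unadjusted p = 0.0424, limma adjusted p = 0.193). The interferon-induced ligands of CXCR3, Cxcl9, Cxcl10 and Cxcl11, stayed at or under 43.0 in all 8 tumours; RefSeq lists Cxcl11 as a transcribed pseudogene in its reference strain. Their log2 changes were 0.24, 0.21 and −0.16, and none passed the test. The 14 ligands among the dimmest 40% of probe sets, among them Ccl17, Ccl20, Ccl22, Xcl1 and Cx3cl1, never exceeded 51.8 in any array, and their log2 changes ran from −0.27 to 0.54. Of the 450 member signals 141 were below the added constant of 16. Ccl19, Ccl21a, Ccl21b, Ccl21c, Ccl21d, Ccl26, Ccl27b and Cxcr1 had no probe set of their own here and were not analysed.

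Cx3cl1, the membrane-tethered ligand of CX3CR1, had 4 probe sets, of which the brightest overlapped between groups (log2 change 0.08). Its second probe set had 1.00 to 1.28 in ALT tumours, against 19.2, 7.16 and 22.2 in telomerase tumours, and 24.7 in the parental tumour (log2 change −0.88, adjusted p = 0.00589 over all probe sets). These signals are low, at most 24.7, and the other 2 probe sets had changes of 0.17 and 0.09.

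Among the receptors, Cxcr4 had the highest mean signal and was the one member that rose. CXCR4 binds CXCL12 and holds haematopoietic cells and thymocytes in their niches. Its signals were 1874, 1764, 1881, 1645 and 1623 in ALT tumours 1 to 5, against 1177, 1244 and 1321 in telomerase tumours 1 to 3 and 1223 in the parental tumour. The groups did not overlap, though the lowest ALT value was 1.23 times the highest telomerase value. The means were 1758 ± 122 (SD, n = 5) in ALT and 1247 ± 72.4 (SD, n = 3) in telomerase tumours, a 1.41-fold difference (log2 change 0.49, SE 0.0804, limma adjusted p = 0.00341). The change was 0.53 in the arrays without acinar transcripts (adjusted p = 0.0563) and 0.40 in those with them (adjusted p = 0.318), neither past the threshold.

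Ccr2, the receptor of CCL2, CCL7 and CCL12 that brings monocytes out of the bone marrow, fell. Ccr2 signals were 40.2, 58.9, 38.2, 30.6 and 107.3 in ALT tumours 1 to 5, against 178.2, 246.5 and 136.3 in telomerase tumours 1 to 3 and 152.4 in the parental tumour. ALT 5 was the highest of its group and came closest to the telomerase tumours, whose lowest value was 1.27 times as high. The log2 change was −1.57 (SE 0.304, limma adjusted p = 0.0082). Of its 4 probe sets the second was lower in ALT tumours too (log2 change −0.91, adjusted p = 0.0137 over all probe sets), and the 2 dimmest, with mean signals of 19.9 and 9.47, had changes of −0.16 and −0.08. In the arrays without acinar transcripts the change was −2.17 (adjusted p = 0.00516), and in those with them −0.92 (adjusted p = 0.448).

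Ccr2 closes a run of receptor genes on chromosome 9 that begins with Ccr9, Cxcr6, Xcr1, Ccr1, Ccr1l1 and Ccr3. Ccr1, a receptor of inflammatory chemokines on myeloid cells, had 35.7, 37.2, 24.2, 46.4 and 66.1 in ALT tumours 1 to 5, against 74.3, 101.3 and 49.5 in telomerase tumours 1 to 3, and only ALT 5 reached into the telomerase range (log2 change −0.65, unadjusted p = 0.0259, limma adjusted p = 0.143). Cxcr6, Xcr1, Ccr1l1 and Ccr3 had mean signals of 8.65 to 18.2, none passed the test, and their log2 changes were 0.30, 0.21, −0.21 and 0.02.

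Ccr7, which guides naive T cells and thymocytes toward CCL19 and CCL21, fell, and 4 of the 5 ALT values lay below the added constant of 16. Ccr7 signals were 5.98, 14.3, 22.3, 3.06 and 11.1 in ALT tumours 1 to 5, against 59.1, 67.5 and 40.4 in telomerase tumours 1 to 3 and 55.6 in the parental tumour. The log2 change was −1.41 (SE 0.238, limma adjusted p = 0.00386). Its size depends on the added constant, with −2.41 for a constant of 1 (adjusted p = 0.0145) and −0.67 for a constant of 64 (adjusted p = 0.00231). It lost its call in the arrays without acinar transcripts (−1.55, adjusted p = 0.0605) and with them (−1.10, adjusted p = 0.168). Probe sets that read Ccl19 or Ccl21 each named 9 or 10 genes and had 41.4 to 119.8 and 30.5 to 72.0 in ALT tumours, against 38.4 to 86.9 and 23.2 to 56.8 in telomerase tumours.

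Ccr9, the gut and thymus homing receptor for CCL25, was the second brightest receptor and the most variable of the bright ones. Ccr9 signals were 869.5, 1052, 1546, 1256 and 334.9 in ALT tumours 1 to 5, against 707.1, 2814 and 512 in telomerase tumours 1 to 3 and 557.3 in the parental tumour. Telomerase 2 was highest and ALT 5 lowest, 8.40 times apart, and the groups overlapped over most of their range (log2 change −0.16, 95% interval −1.40 to 1.08, limma adjusted p = 0.908). The next 2 probe sets by brightness had the same highest and lowest arrays, and none of the 5 passed the test. Without telomerase 2 the change was 0.57 (adjusted p = 0.58) and without ALT 5 it was 0.19, so its direction rests on single arrays.

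**Figure D4:**
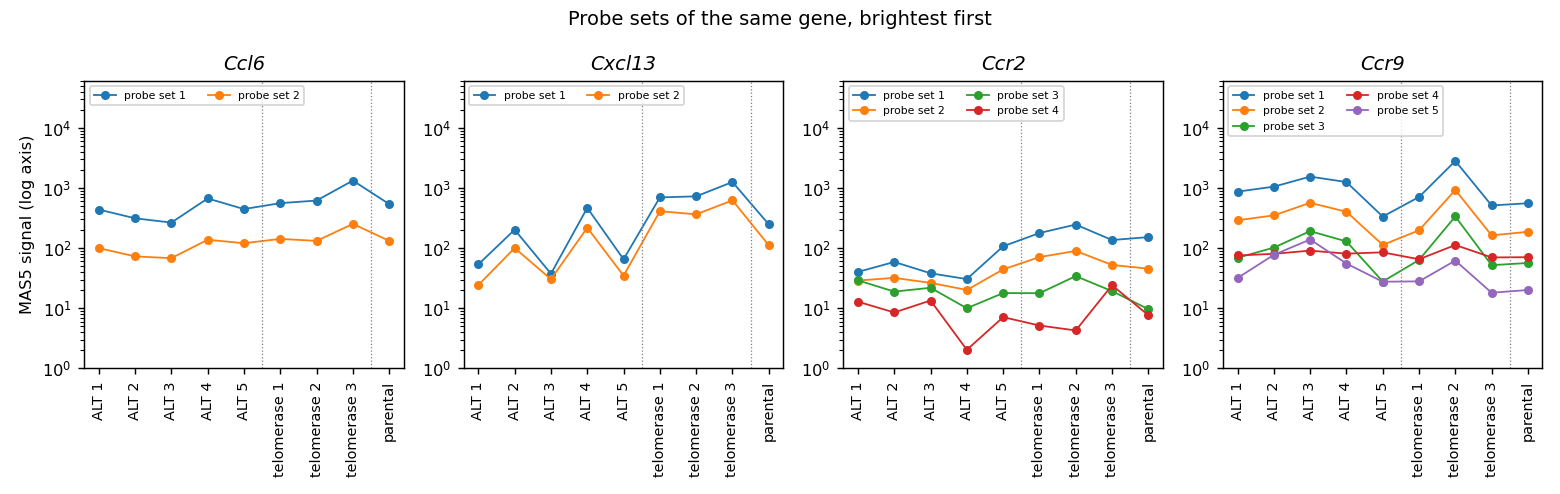
MAS5 signal (log axis) of every probe set that names only Ccl6, Cxcl13, Ccr2 or Ccr9, across the 5 ALT, 3 telomerase and 1 parental arrays, with the brightest as probe set 1. The Cxcl13 probe sets run nearly in parallel, and 4 of the 5 Ccr9 probe sets are highest at telomerase 2.

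Cxcr3, the receptor of effector T cells for CXCL9 and CXCL10, had 356.7, 237.2, 256.1, 485.4 and 235 in ALT tumours 1 to 5, against 387.9, 244.5 and 294.9 in telomerase tumours 1 to 3, which overlapped (log2 change −0.01, 95% interval −0.54 to 0.52, limma adjusted p = 0.988). Cxcr5, the receptor of CXCL13, had 20.5, 27.5, 43.2, 35.1 and 28.1 in ALT tumours, against 47.2, 24.1 and 47.3 in telomerase tumours, with telomerase 2 inside the ALT range (log2 change −0.23, 95% interval −0.70 to 0.24). Ccr8, a receptor of CCL8 in mouse, had 11.3, 2.00, 2.16, 7.78 and 5.08 in ALT tumours, against 6.68, 10.4 and 7.24 in telomerase tumours, low in every array, and a log2 change of −0.17 (95% interval −0.54 to 0.20). Cx3cr1, the fractalkine receptor of monocytes, and Ccr10, a skin-homing receptor, had log2 changes of 0.02 and −0.12. Ccr4, Ccr6 and Cxcr2 had mean signals of 23.7, 16.1 and 8.77, and none of them passed the test.

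The called genes were set beside their known partners. Ccl8 fell, while Ccr8, a receptor of CCL8 in mouse, was low in every array and did not pass the test (log2 change −0.17). Ccr7 fell, and its ligands Ccl19 and Ccl21 had no probe set of their own. Ccl12 and its receptor Ccr2 both fell, while Ccl2 and Ccl7, the other Ccr2 ligands measured, did not pass the test. Cxcl13 fell and the change of its receptor Cxcr5 did not pass the test. Cxcr4 rose, and its ligand Cxcl12 had a change of −0.60 that missed the threshold. Of the 6 called genes the parental tumour was nearer to the telomerase mean in 5, and of the 44 others in 23.

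Because Ccl8, Ccl12 and Ccr2 are known from macrophages and monocytes, the 24 marker genes of these cells are given beside them. Their summed signal was 8602 to 12637 in ALT tumours and 8690 to 11955 in telomerase tumours, which overlapped over nearly the whole range. Of the 24 genes, 21 lay above the lowest 40% of probe sets, 1 rose and 1 fell (8.33% called). Cd14, a co-receptor for bacterial lipopolysaccharide, rose by 0.83 on the log2 scale (limma adjusted p = 0.0198) and Fcgr3, an Fc receptor, fell by 0.55 (adjusted p = 0.0387). The macrophage receptor gene Csf1r averaged 440 in ALT and 480 in telomerase tumours (log2 change −0.12), and Adgre1, which encodes F4/80, averaged 119 and 117 in the same order (log2 change −0.01). The complement genes C1qa, C1qb and C1qc had changes of −0.34, −0.24 and −0.30, and none passed the test. Marco, Siglec1 and Vsig4 were at low signals, with means under 25 in either group.

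Other cell types were followed in the same way, and their part in the results was not tested. The summed signal of the fibroblast genes was 5803 to 11414 in ALT and 6969 to 9437 in telomerase tumours, and of the endothelial genes 537 to 682 and 557 to 830 in the same order. The dendritic cell genes summed to 264 to 507 in ALT and 271 to 424 in telomerase tumours, the NK-cell genes to 743 to 1332 and 892 to 1156, the neutrophil genes to 294 to 493 and 322 to 381, and the adipocyte genes to 903 to 1801 and 1406 to 3782. The B-cell genes summed to 949 to 1246 in ALT and 886 to 912 in telomerase tumours, ranges that did not overlap. None of the genes in these 6 lists or in the B-cell list passed the test. Of the 16 T-cell genes 3 rose and 5 fell, which is 50% called, against 10.6% of all genes. Lef1, a transcription factor of thymocytes, fell by 1.20 on the log2 scale, and Bcl11b, a factor of T-cell commitment, fell by 0.43. The T-cell receptor complex genes Cd3g, Cd3e and Cd3d fell by 0.82, 0.50 and 0.39. The co-receptor genes Cd4 and Cd8b1 and the adhesion gene Cd2 rose by 1.05, 0.96 and 0.94 (limma adjusted p at most 0.0343 for all 8 genes).

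**Figure D5:**
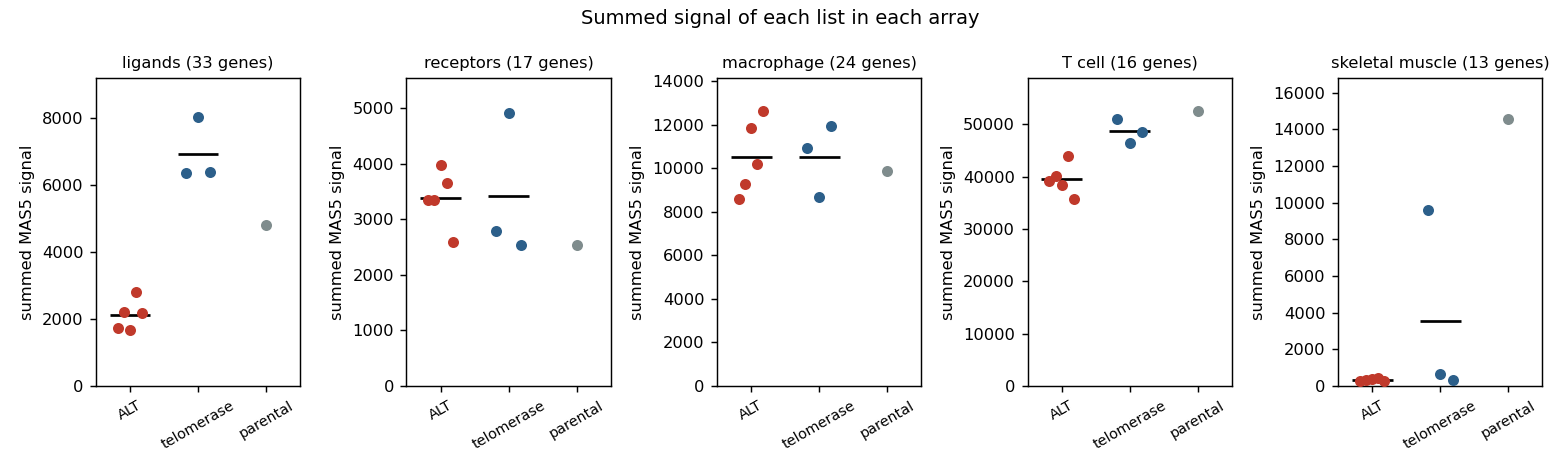
Summed MAS5 signal of 5 gene lists in each array (linear axis from 0), with ALT tumours left of telomerase tumours and the parental tumour last; lines are group means. The ligand sums of the ALT tumours, 1660 to 2810, all lie under those of the telomerase tumours, 6357 to 8041; without Ccl8, Ccl12 and Cxcl13 the ligand sums overlap, as the macrophage sums do.

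Of 75 other genes of chemokine biology, 7 rose and 5 fell (16% called, median log2 change 0.01). Over all genes 10.6% passed. Of the 75 genes 72 lay above the lowest 40% of probe sets, and of all genes above that bound 15.1% passed. The 16% is therefore near the share of genes of like signal. The split of the 75 genes into higher and lower depends on the scaling, with 8 higher and 2 lower after quantile normalisation and 6 higher and 2 lower after median centring. Among 10 atypical receptors and chemokines with other names, Pf4, a CXC chemokine of platelets and some macrophages, had 212.6 to 732.4 in ALT tumours and 748.6 to 1032 in telomerase tumours (log2 change −1.19, limma adjusted p = 0.0287). Cklf, a chemokine-like factor, rose by 0.55 (adjusted p = 0.00617).

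Of 36 genes of receptor signalling 1 rose and 3 fell (11.1% called, against 10.6% of all genes). Gnb1, a G protein beta subunit that passes on the signal of these receptors, rose by 0.73 on the log2 scale (limma adjusted p = 0.000602). Grk6, a kinase that desensitises chemokine receptors such as CXCR4, fell by 0.51 (adjusted p = 0.00353), with 919 to 986 in ALT tumours and 1223 to 1527 in telomerase tumours. Rac1, a GTPase of cell movement, and Fnbp1, a membrane-bending adaptor of actin assembly, fell by 0.47 and 0.50.

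Of 29 genes of migration and adhesion 5 rose and 1 fell (20.7% called). Itgb7, an integrin chain of gut homing, had 549.2 to 1021 in ALT tumours and 307.3 to 361.0 in telomerase tumours (log2 change 1.18, limma adjusted p = 0.0029). Itgal and Itgb2, the chains of the integrin LFA-1, rose by 0.58 and 0.49 (adjusted p = 0.0464 and 0.0474), and Rap1b and Apbb1ip, which help to activate integrins, rose by 0.36 and 0.89. Selplg, the selectin ligand PSGL-1, fell by 1.42 (adjusted p = 0.0477). The count over these 75 genes is sensitive to single arrays, with 4 called without telomerase 1, 5 without telomerase 2, 7 without telomerase 3 and 7 without ALT 1, against 12 with all arrays.

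Among 34 cytokines and regulators that are known to induce chemokines, 2 rose and 2 fell (11.8% called, against 10.6% of all genes). Ltb, the lymphotoxin beta gene, whose product is known to induce Cxcl13 in lymphoid stroma, had 616.1 to 1070 in ALT and 316.6 to 342.0 in telomerase tumours (log2 change 1.29, limma adjusted p = 0.000633). Ifngr1, a chain of the interferon gamma receptor, rose by 1.14 (adjusted p = 0.013). Irf7 and Irf9, transcription factors of the interferon response, fell by 0.86 and 0.70 (adjusted p = 0.0218 and 0.0265).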

How the data were processed

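Total RNA of 9 tumours was hybridised to one-colour oligonucleotide arrays. The authors deposited 1 intensity per probe set and array, made with MAS5 according to the submitters' processing notes. Its version, settings and target scale are not given in the sources. The table has 45101 probe sets, no detection calls and no 2 identical arrays; the number of arrays limits the precision.

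Of the probe sets 34958 named 1 gene in the array annotation, 932 several and 9211 none. Each of 18194 genes was read from its brightest probe set, with no filter. Signals were analysed as log2(signal + 16) with limma 3.58.1 in R 4.3.3 (variance moderated with an intensity trend, two-sided, Benjamini-Hochberg over all genes, threshold 0.05). The test set 5 ALT against 3 telomerase tumours; the parental tumour was only described. The fit was tested on simulated data with 200 changed genes. It recovered 22% of those with a log2 change of 0.5, 82% at 1, 92% at 2 and 100% at 4, with 3 false calls. A member that did not pass may therefore still have a change of about 0.5, and some changes of 1 or 2 were missed too. The simulated noise was drawn separately for each gene, so variation that genes share across arrays was not modelled.

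Values per array are given for members past the threshold, the 6 brightest ligands and receptors, and known partners of called members; of other lists up to 4 called genes are named, chosen by the smallest p, and Itgb2, Selplg, the macrophage and T-cell genes, the probe sets and the dimmer members were picked after their values were seen. Members and lists were chosen with earlier results of these data known. Arrays were called with acinar transcripts where the mean log2 signal of the acinar list lay above the middle of its range. Alternatives changed 1 choice at a time: filter, constant, normalisation, probe set summary, parental tumour, variance model, replicate block, arrays left out, threshold and acinar transcripts. Plots used Python 3.11.15 and matplotlib 3.10.9.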

Additional observations from a re-analysis of the deposited data

Results flagged for a closer look

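The summed signal of 6 NK-cell genes was 1332 in ALT 4, apart from the other 4 ALT tumours, which lay between 743 and 869. Of the 33 sets of ALT values examined in this way (16 genes and 17 list sums) this was the 1 set with a value so far from the rest, and chance alone puts about 1 in 20 sets there.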

How the results depend on the processing

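The changes of 16 members were computed under up to 22 alternatives each, 351 values in all, of which 307 kept their direction and their side of the threshold, 14 lost the call, 6 gained it and 24 changed sign, all of the last in members that had not passed. The numbers of called ligands and receptors (3 and 3) moved by over 1.5 times only in the split by acinar transcripts: arrays without them gave 2 ligands, 1 receptor, 6 of the other chemokine genes and 719 genes in all, and arrays with them 1, 0, 0 and 197, with fewer samples in each fit. In the arrays with them the 1 ligand was Ccl6, and none of the 6 called members passed. The other chemokine genes (12) gave 5 with no intensity trend, 3 with a log2 change of at least 1 (468 genes in all) and 19 with each probe set on its own. Leaving out 1 array at a time gave 4 to 12 of them and 979 to 1793 genes in all, with 979 without telomerase 1 and 1227 without telomerase 2. Quantile normalisation gave 984 genes higher and 951 lower, against 823 and 1103; it left the ligand and receptor calls at 3 and 3.

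Whether replicate numbers pair the samples cannot be told from the deviations. Same-numbered arrays correlated at −0.21, −0.268 and −0.462, but each of these pairs sets an array with acinar transcripts against one without. Pairs of an ALT and a telomerase array alike in acinar transcripts correlated at 0.243 to 0.346, and all unlike pairs were negative. With the replicate number as a block 3 ligands, 2 receptors, 4 other chemokine genes and 873 genes passed, and Ccr7 had −1.26 (limma adjusted p = 0.0542). Robust moderation ended the call of Cxcl13 (limma adjusted p = 0.083). Over all settings the limma adjusted p ran from 6.37e-05 to 0.0557 for Ccl8, 0.000151 to 0.156 for Ccl12, 0.00163 to 0.244 for Cxcl13, 0.000901 to 0.448 for Ccr2, 0.000806 to 0.168 for Ccr7 and 0.000613 to 0.318 for Cxcr4.

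Sign changes were as follows, and their cause was not tested. Cxcr3 had 0.0444 after quantile normalisation, 0.0386 with the parental tumour added, 0.19 in arrays without acinar transcripts and 0.0862 with a term for them. Ccr9 had 0.0400 as the mean of its probe sets, 0.0523 with the parental tumour added, 0.15 with the replicate block, 0.39 in arrays with acinar transcripts and 0.26 with the term. Ccl2 had −0.0186 with the parental tumour added and −0.0949 in arrays without acinar transcripts, where Ccl9 had 0.29 and Cxcr5 0.13. With single arrays left out, changes ran from −0.17 to 0.16 for Cxcr3, −0.64 to 0.57 for Ccr9, −0.0482 to 0.10 for Ccl2 and −0.46 to 0.32 for Ccl9.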
